A study of Mus musculus with 4 samples.

Results

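The tRNA families with a long variable arm are those for leucine (Leu), serine (Ser) and selenocysteine (SeC), 3 of the 23 tRNA families compared in this bone marrow series. The rule that chose them is their structural class and uses no measured value, although earlier results of these data were known when it was set. The members comprise every position of the deposited coverage tables of these families, 83 positions for Leu, 81 for Ser and 85 for SeC, together 249 of 1698. The RNA came from bone marrow of C57BL/6 mice at postnatal day 8, and its small RNA fraction was sequenced. There were 2 libraries of Dnmt2-/- mice and 2 libraries of wild-type (WT) mice, of the same strain, tissue and age. The labels name neither the Dnmt2 allele nor the number of animals per library, nor whether the libraries came from separate animals. A p-value here therefore reflects the spread among 4 libraries, which may be technical. The tables hold no mRNA, so neither the loss of Dnmt2 nor the cell makeup of the marrow was checked from them. In bulk marrow, a different number of cells of a type and a different amount of tRNA fragments per cell cannot be told apart.

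A tRNA folds into an acceptor stem, a D arm, an anticodon arm, a variable region and a T arm. In most tRNAs the variable region is a short loop, whereas in tRNA-Leu, tRNA-Ser and tRNA-Sec it forms an arm of its own, which seryl-tRNA synthetase recognises in tRNA-Ser and tRNA-Sec. tRNA-Sec is charged with serine, which is then converted to selenocysteine, and it reads UGA codons in the mRNAs of selenoproteins. Ribonucleases such as angiogenin cut tRNAs, often in the anticodon loop, into fragments that small RNA sequencing detects. Dnmt2 methylates cytosine 38 in the anticodon loop of tRNA-Asp, tRNA-Gly and tRNA-Val, a modification known to protect these tRNAs from cleavage, and the 3 families described here are not among these substrates. RefSeq on GRCm38.p6 names 25 mouse tRNA-Leu genes, 10 with the anticodon CAG, 5 with AAG, 4 with CAA and 3 each with TAA and TAG. It names 22 tRNA-Ser genes, 8 with the anticodon GCT, 7 with AGA, 3 each with CGA and TGA and 1 with GGA. The tables pool the genes of a family, and the assignment of reads that match several genes is not stated in the sources used here, so values of single genes cannot be read from them.

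The values are coverage on the forward strand in deposited units, in which each library was multiplied by a constant that no header or label explains. The smallest positive value of a library was taken as the worth of 1 read, and values divided by it are given as reads. Positions are counted from 1 at the 5′ end of a table, and they may differ by a few bases from the standard tRNA numbering. The highest position of Leu held 552 and 2066 reads in Dnmt2-/- replicates 1 and 2, and 1053 and 1527 reads in WT replicates 1 and 2. That of Ser held 956 and 2483 reads in the Dnmt2-/- libraries and 1156 and 2251 reads in the WT libraries. SeC was the shallowest, with 322 and 215 reads in the Dnmt2-/- libraries and 555 and 304 reads in the WT libraries. The exact 95% Poisson interval of the lowest of these peaks ran from 187 to 246 reads, and such intervals cover counting error only. At least 1099 reads were needed to give the Leu profile of any library, at least 1110 for Ser and at least 410 for SeC, counted as the sum of all net rises along the profile. Dividing the summed coverage by this number gives an upper bound on the mean read length, which was 19.7 to 21.3 bases over the 4 libraries for Leu, 17.0 to 18.5 bases for Ser and 23.1 to 31 bases for SeC.

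The 3 families were minor parts of the tRNA coverage. Leu held 0.275% and 0.794% of the summed coverage of all families in the Dnmt2-/- libraries and 0.314% and 0.571% in the WT libraries. Ser held 0.241% and 0.639% in the Dnmt2-/- libraries and 0.211% and 0.392% in the WT libraries, and SeC held 0.113% and 0.165% in the Dnmt2-/- libraries and 0.121% and 0.149% in the WT libraries. Leu stood at rank 10 to 12 of 23 families in every library, Ser at rank 12 to 14 and SeC at rank 16 to 18. In all 3 families the percentage was higher in the libraries numbered 2 than in those numbered 1, in both genotypes.

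In deposited units, the summed coverage of Leu was 0.302 and 1.51 in Dnmt2-/- replicates 1 and 2, and 0.275 and 0.819 in WT replicates 1 and 2. Ser had 0.264 and 1.21 units in the Dnmt2-/- libraries and 0.185 and 0.563 units in the WT libraries. SeC had 0.124 and 0.314 units in the Dnmt2-/- libraries and 0.106 and 0.214 units in the WT libraries. In each family the Dnmt2-/- library exceeded the WT library of the same number, while the genotypes overlapped because the number 2 libraries were high in both. The Dnmt2-/- to WT ratio was 1.10 in number 1 and 1.84 in number 2 for Leu, 1.43 and 2.16 for Ser, and 1.17 and 1.47 for SeC. The mean was 0.906 ± 0.855 units in Dnmt2-/- and 0.547 ± 0.385 units in WT for Leu, 0.740 ± 0.672 and 0.374 ± 0.267 for Ser, and 0.219 ± 0.134 and 0.160 ± 0.0761 for SeC (SD, n = 2 each).

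**Figure D1:**
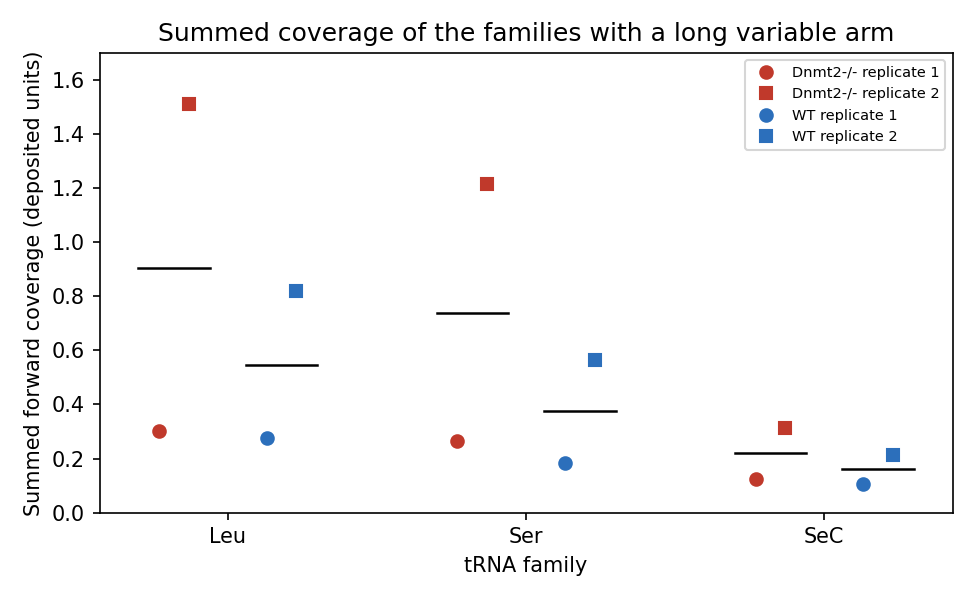
Summed forward coverage of Leu, Ser and SeC in deposited units, with a point per library (circles for replicate 1, squares for replicate 2) and a bar at the mean of each genotype. In each family the replicate 2 library lies above the replicate 1 library of its genotype, and Dnmt2-/- replicate 2 is the highest library, at 1.51 units for Leu and 1.21 units for Ser.

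The comparison asked whether the amount of fragments of these families differed in the absence of Dnmt2. None of the 3 passed the test. With limma on log2(total + 0.001) over all families, 0 of 23 were past the adjusted threshold of 0.05 (0.0%), and 0 had an unadjusted p under 0.05. The log2 difference, Dnmt2-/- minus WT, was 0.51 for Leu (SE 1.06, 95% interval −2.11 to 3.13), 0.81 for Ser (SE 1.04, interval −1.76 to 3.38) and 0.39 for SeC (SE 0.83, interval −1.66 to 2.44), each with limma's adjusted p = 0.973. The median over the 23 families was 0.47, and relative to it Leu stood at 0.038, Ser at 0.34 and SeC at −0.078. Both Dnmt2-/- libraries lay above both WT libraries in 21.7% of all families as deposited, and in none of Leu, Ser and SeC. The difference turned, without Dnmt2-/- replicate 2, to −0.65 for Leu, −0.29 for Ser and −0.27 for SeC, and without WT replicate 1 to −0.28 for Leu and −0.11 for SeC. Leaving out Dnmt2-/- replicate 1 instead gave 1.67 for Leu, 1.91 for Ser and 1.06 for SeC, and leaving out WT replicate 2 gave 1.29, 1.61 and 0.89. With libraries rescaled to one total, the difference was 0.14 for Leu, 0.45 for Ser and 0.028 for SeC.

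Along the molecule, Leu coverage formed 2 high blocks with a low stretch over the anticodon, and smaller blocks beside them. The 5′ block began at position 1, with 317 and 1472 reads in the Dnmt2-/- libraries and 594 and 1041 reads in the WT libraries. A further rise lay between positions 3 and 4, from 357 to 479 reads in Dnmt2-/- replicate 1 and from 1137 to 1395 reads in WT replicate 2. The block ended sharply after position 16, in the D arm, where coverage had its steepest drop in every library. At position 15, the highest on average over the libraries, there were 497 and 2066 reads in the Dnmt2-/- libraries and 796 and 1494 reads in the WT libraries. These short 5′ fragments were thus seen in all libraries, and Dnmt2-/- replicate 2 held the most reads of them.

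Beyond the D arm, Leu coverage kept a low plateau up to position 34 and then dropped again inside the anticodon loop. From position 34 to position 36 it went from 132 to 50 reads in Dnmt2-/- replicate 1, from 304 to 100 in Dnmt2-/- replicate 2, from 334 to 129 in WT replicate 1 and from 358 to 153 in WT replicate 2. Angiogenin is known to cut in this loop, but which enzyme made these ends was not tested. At position 32 the plateau reached 25.9% and 15.8% of the family's highest position in the Dnmt2-/- libraries and 33.1% and 25.5% in the WT libraries. Both fragment ends were present in each library, and the end in the D arm was the more frequent.

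The other high block of Leu lay over the variable arm and the first strand of the T arm. Coverage climbed in steps from position 46, with the steepest rise of this block between positions 51 and 52, and it was highest at position 55 within this block in every library. Position 55 held 552 and 747 reads in the Dnmt2-/- libraries, and 1053 and 1527 reads in the WT libraries. In deposited units this was 0.0141 ± 0.00969 in Dnmt2-/- and 0.0138 ± 0.00970 in WT (SD, n = 2), with a ratio of 1.05 in number 1 and 1.02 in number 2. The block ended after position 65, where 44.3% and 46.4% of the coverage was lost to the next position in the Dnmt2-/- libraries, and 40.1% and 50.5% in the WT libraries. The ratios at position 55 were near 1 while those at position 15, in the 5′ block, were 1.25 in number 1 and 2.87 in number 2.

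A last, smaller block of Leu ran from about position 70 to the end of the table. At position 72 it had 226 and 96 reads in the Dnmt2-/- libraries and 325 and 161 reads in the WT libraries. As a percentage of the family's highest position this was 40.9% and 4.65% in the Dnmt2-/- libraries and 30.9% and 10.5% in the WT libraries. As a percentage of the highest position the block was larger in the libraries numbered 1, in both genotypes. In deposited units the numbers differed little, with 0.00297 and 0.00269 in the Dnmt2-/- libraries and 0.00213 and 0.00218 in the WT libraries. The last position still held 71 and 52 reads in the Dnmt2-/- libraries and 123 and 78 reads in the WT libraries, below position 82 beside it, with 163 and 80 reads in the Dnmt2-/- libraries and 255 and 137 reads in the WT libraries. Positions of Leu outside the rule for named positions, among them those after 32 up to 36, 46, 70 to 72 and 82, were chosen after their values were seen. So were the positions of Ser and SeC given below that the rule does not name.

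Ser coverage was dominated by a single 5′ block. At position 12 it had 956 and 2483 reads in the Dnmt2-/- libraries and 1156 and 2251 reads in the WT libraries. The very first position already held 94.4% and 94.2% of the highest position in the Dnmt2-/- libraries and 93.4% and 95.6% in the WT libraries, so nearly all of these reads began at the 5′ end of the mature tRNA. The block ended after positions 15 and 16, and the steepest drop lay after position 16 in all 4 libraries. At position 19 there were 56 and 161 reads in the Dnmt2-/- libraries and 97 and 166 reads in the WT libraries. The reads thus ended in the D arm, at the same position as the short Leu fragments.

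No block of similar height followed in Ser. At position 32, at the start of the anticodon loop, coverage was 5.54% and 3.75% of the highest position in the Dnmt2-/- libraries and 6.92% and 5.15% in the WT libraries. In the 3′ part, position 63 held 133 and 63 reads in the Dnmt2-/- libraries and 357 and 114 reads in the WT libraries. That is 13.9% and 2.54% of the highest position in the Dnmt2-/- libraries, against 30.9% and 5.06% in the WT libraries. On this scale the genotypes overlapped, and the libraries numbered 1 were higher than those numbered 2 in each genotype. In deposited units, position 63 had 0.00175 and 0.00177 in the Dnmt2-/- libraries and 0.00234 and 0.00154 in the WT libraries, so number 1 was the higher in WT alone. The mean was 0.00176 ± 1.4e-05 in Dnmt2-/- and 0.00194 ± 0.000569 in WT (SD, n = 2).

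SeC had a high block in the middle of the molecule, which was its highest in Dnmt2-/- replicates 1 and 2 and in WT replicate 1, while WT replicate 2 was highest at position 15, with 304 reads. Between positions 37 and 38, at the 3′ side of the anticodon loop, coverage rose more steeply than anywhere else in each of the 4 libraries. It went from 82 to 301 reads in Dnmt2-/- replicate 1, from 66 to 197 in Dnmt2-/- replicate 2, from 135 to 504 in WT replicate 1 and from 142 to 248 in WT replicate 2. From position 40 to position 49 it stayed nearly level, with 322 and 215 reads at position 41 in the Dnmt2-/- libraries and 555 and 263 reads in the WT libraries. This block begins in the anticodon loop and spans the anticodon stem's second strand and much of the variable arm.

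The end of the SeC block, and what followed it, differed between replicate numbers. In number 1 coverage dropped after positions 52 and 53, from 300 reads at position 52 to 59 at position 54 in Dnmt2-/- and from 528 to 120 in WT. In number 2 coverage rose again at position 54, to 171 reads in Dnmt2-/- and 183 in WT, and this block ran to position 69. At position 61 there were 46 and 158 reads in the Dnmt2-/- libraries and 72 and 148 reads in the WT libraries, which is 14.3% and 73.5% of the highest position in Dnmt2-/- and 13.0% and 48.7% in WT. After position 69 coverage dropped to 6 and 11 reads in the Dnmt2-/- libraries and 17 and 12 reads in the WT libraries. The last position of SeC held 1 and 12 reads in the Dnmt2-/- libraries and 13 and 8 reads in the WT libraries, so hardly any read reached the 3′ end of the table.

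The 5′ side of SeC also depended on the replicate number. Position 1 held 116 and 161 reads in the Dnmt2-/- libraries and 174 and 279 reads in the WT libraries, and the coverage stayed close to that up to position 18. At position 18 it was 42.9% and 83.7% of the highest position in the Dnmt2-/- libraries and 37.3% and 93.8% in the WT libraries. It then dropped only in part, to 88 and 113 reads at position 19 in the Dnmt2-/- libraries and 149 and 206 reads in the WT libraries. At position 19 SeC was thus at 27.3% and 52.6% of its highest position in the Dnmt2-/- libraries and at 26.8% and 67.8% in the WT libraries. At the same position Ser was at 5.86% and 6.48% of its own highest position in the Dnmt2-/- libraries and at 8.39% and 7.37% in the WT libraries.

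**Figure D2:**
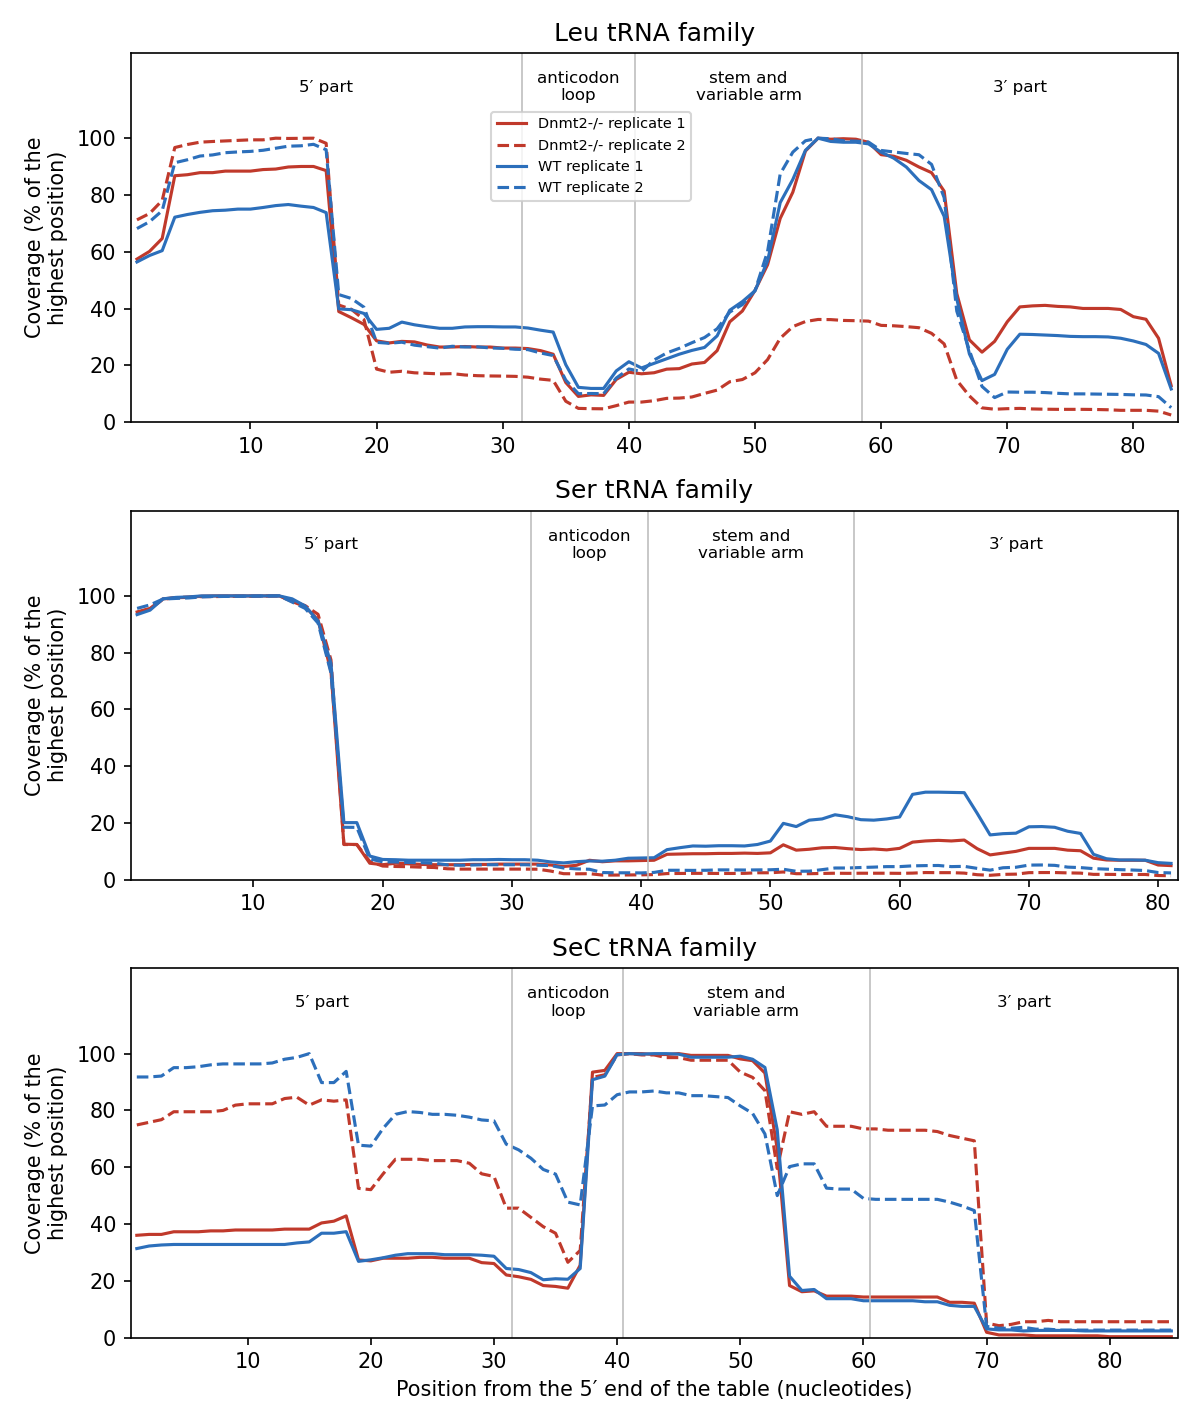
Forward coverage along Leu, Ser and SeC as a percentage of the highest position of each library, against the position from the 5′ end. Red lines are Dnmt2-/- libraries, blue lines WT libraries, solid lines replicate 1 and dashed lines replicate 2, and grey lines separate the 4 regions used for the shares. Leu and Ser drop after position 16 in all libraries, SeC rises at position 38, and the SeC lines pair by replicate number rather than by genotype.

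For the comparison of shares, each tRNA was divided into 4 regions. These were the 5′ part (positions 1 to 31), the anticodon loop with room for a longer D loop (32 to 40), the stretch from position 41 to the last 25 positions, which holds the second strand of the anticodon stem and the variable arm, and the 3′ part (the last 25 positions). A share of the family's own coverage does not depend on the constant of the library. The 5′ part of Leu held 42.5% and 70.2% of the coverage in the Dnmt2-/- libraries and 42.0% and 47.9% in the WT libraries. Dnmt2-/- replicate 2 stood apart from the other three, and without it the log2 odds difference, 0.69 with all libraries, was −0.14. The 3′ part of Leu held 30.8% and 12.4% in the Dnmt2-/- libraries and 27.8% and 21.9% in the WT libraries, with a difference of −0.39 that turned to 0.43 without the same library.

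The variable arm region of Leu held 23.1% and 14.3% of the coverage in the Dnmt2-/- libraries and 25.4% and 26.4% in the WT libraries. Its anticodon loop held 3.60% and 3.08% in the Dnmt2-/- libraries and 4.85% and 3.84% in the WT libraries. In these 2 regions both Dnmt2-/- libraries lay below both WT libraries, which was so in 21.7% of all 23 families for the variable arm region and in 26.1% for the anticodon loop. The means were 18.7% ± 6.24 in Dnmt2-/- and 25.9% ± 0.72 in WT for the variable arm region, and 3.34% ± 0.368 and 4.35% ± 0.714 for the loop (SD, n = 2). The log2 odds difference was −0.64 for the variable arm region (SE 0.41, 95% interval −1.78 to 0.50) and −0.38 for the loop (SE 0.21, interval −0.997 to 0.23). Neither passed limma's test over all families, with an adjusted p of 0.815 for the variable arm region and 0.828 for the loop. The difference in the variable arm region was −0.21 without Dnmt2-/- replicate 2 and −1.06 without Dnmt2-/- replicate 1.

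The 5′ part of Ser held 78.0% and 93.6% of the coverage in the Dnmt2-/- libraries and 69.1% and 89.5% in the WT libraries. The variable arm region held 7.48% and 2.11% in the Dnmt2-/- libraries and 9.94% and 2.99% in the WT libraries, and the 3′ part 11.9% and 3.10% in the Dnmt2-/- libraries and 18.5% and 5.74% in the WT libraries. The genotypes overlapped in all 4 regions, and for the 3′ part both Dnmt2-/- libraries lay below both WT libraries in 8.7% of all families. Within each replicate number, the variable arm and 3′ shares of the Dnmt2-/- library were below those of the WT library, with ratios of 0.753 and 0.704 for the variable arm region and 0.644 and 0.541 for the 3′ part. The anticodon loop of Ser held 2.57% and 1.16% in the Dnmt2-/- libraries and 2.51% and 1.73% in the WT libraries. The log2 odds difference was 0.72 for the 5′ part (SE 1.02), −0.26 for the loop (SE 0.49), −0.47 for the variable arm region (SE 0.97) and −0.82 for the 3′ part (SE 0.97). On leaving out Dnmt2-/- replicate 2 these were −0.30, 0.30, 0.46 and 0.20, and without WT replicate 1 they were −0.25, 0.0079, 0.43 and 0.12, in the same order of regions.

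The variable arm region of SeC held 46.3% and 33.7% of the coverage in the Dnmt2-/- libraries and 47.1% and 27.8% in the WT libraries. Its anticodon loop held 13.9% and 9.69% in the Dnmt2-/- libraries and 14.3% and 11.3% in the WT libraries, and its 5′ part 35.3% and 42.5% in the Dnmt2-/- libraries and 33.4% and 51.7% in the WT libraries. The 3′ part held 4.52% and 14.1% in the Dnmt2-/- libraries and 5.16% and 9.18% in the WT libraries. In number 1 the genotypes were within 2 percentage points of each other in all 4 regions. They stood further apart in number 2, at 42.5% in Dnmt2-/- and 51.7% in WT for the 5′ part. Both number 1 libraries lay on one side of both number 2 libraries in each region. The log2 odds difference was −0.21 for the 5′ part (SE 0.57), −0.15 for the loop (SE 0.30), 0.18 for the variable arm region (SE 0.58) and 0.25 for the 3′ part (SE 0.76). The 5′ part turned to 0.012 and the variable arm region to −0.21 without Dnmt2-/- replicate 1, and without WT replicate 2 the 5′ part to 0.34 and the variable arm region to −0.43. The loop turned to 0.14 without Dnmt2-/- replicate 2 and to 0.041 without WT replicate 1, and the 3′ part to −0.64 and −0.19 without the same 2 libraries.

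**Figure D3:**
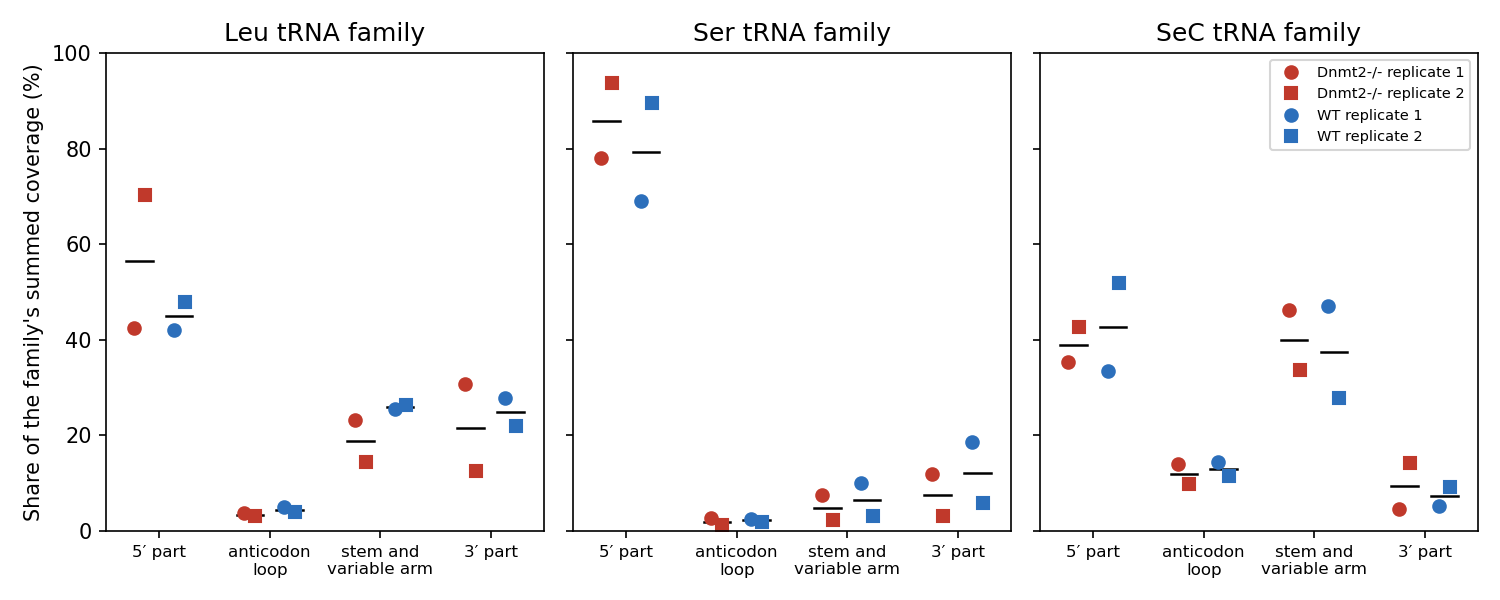
Share of a family's summed coverage (%) in the 5′ part, the anticodon loop, the stretch of the anticodon stem and variable arm, and the 3′ part of Leu, Ser and SeC, with a point per library and a bar at the mean of each genotype. Both Dnmt2-/- libraries of Leu lie below both WT libraries in the variable arm stretch, at 23.1% and 14.3% against 25.4% and 26.4%. For SeC, both replicate 1 points lie on one side of both replicate 2 points in each region, and the genotypes are further apart in replicate 2.

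Across the 4 regions, limma called 0 of 23 families for each share (0.0%), with 0 families at an unadjusted p under 0.05 in each. The adjusted p of Leu, Ser and SeC was 0.957 for the 5′ part and 0.828 for the anticodon loop. In the variable arm region it was 0.815 for Leu and 0.894 for Ser and SeC, and in the 3′ part it was 0.969 for Leu and SeC and 0.900 for Ser. With 2 libraries per genotype the smallest two-sided p of an exact permutation test is 0.333, and no such test was made of single values.

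The ends of the fragments gave a measure of their own, the percentage of reads at a position that is lost to the next one, net of reads that begin there. At the steepest drop of Ser, after position 16, this net loss was 82.9% of 702 reads and 83.9% of 1923 reads in the Dnmt2-/- libraries, and 73.6% of 881 reads and 74.6% of 1640 reads in the WT libraries. The exact 95% binomial intervals were 79.9% to 85.6% and 82.2% to 85.5% in the Dnmt2-/- libraries and 70.5% to 76.4% and 72.4% to 76.7% in the WT libraries, for counting error only. They take the net loss as a count of reads that ended and make no allowance for reads that begin at the next position. The loss averaged 83.4% ± 0.725 in Dnmt2-/- and 74.1% ± 0.722 in WT (SD, n = 2), and both Dnmt2-/- libraries lay above both WT libraries. Reads that end at position 16 and reads that begin at the next position cannot be told apart in a net loss. At the same position of Leu the net loss was 56.0% of 489 reads and 58.0% of 2029 reads in the Dnmt2-/- libraries, and 45.9% of 777 reads and 53.2% of 1465 reads in the WT libraries. It averaged 57.0% ± 1.40 in Dnmt2-/- and 49.6% ± 5.11 in WT, with both Dnmt2-/- libraries above both WT libraries. Unlike in Ser, binomial intervals of the genotypes overlapped, at 51.5% to 60.5% in Dnmt2-/- replicate 1 and 50.6% to 55.8% in WT replicate 2. At the steepest drop of each family, both Dnmt2-/- libraries were above both WT libraries in 26.1% of 23 families and below in 17.4%, so such a pattern was not rare among families. This measure was set up after the profiles were seen and was not tested.

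In SeC the net loss after position 69 was 84.6% of 39 reads and 92.6% of 149 reads in the Dnmt2-/- libraries, and 72.1% of 61 reads and 91.2% of 136 reads in the WT libraries. After position 53 it was 72.4% and −33.6% in the Dnmt2-/- libraries and 70.4% and −20.4% in the WT libraries, where a negative loss is a net gain. The genotypes overlapped at both ends of SeC fragments, and after position 53 the libraries divided by number.

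**Figure D4:**
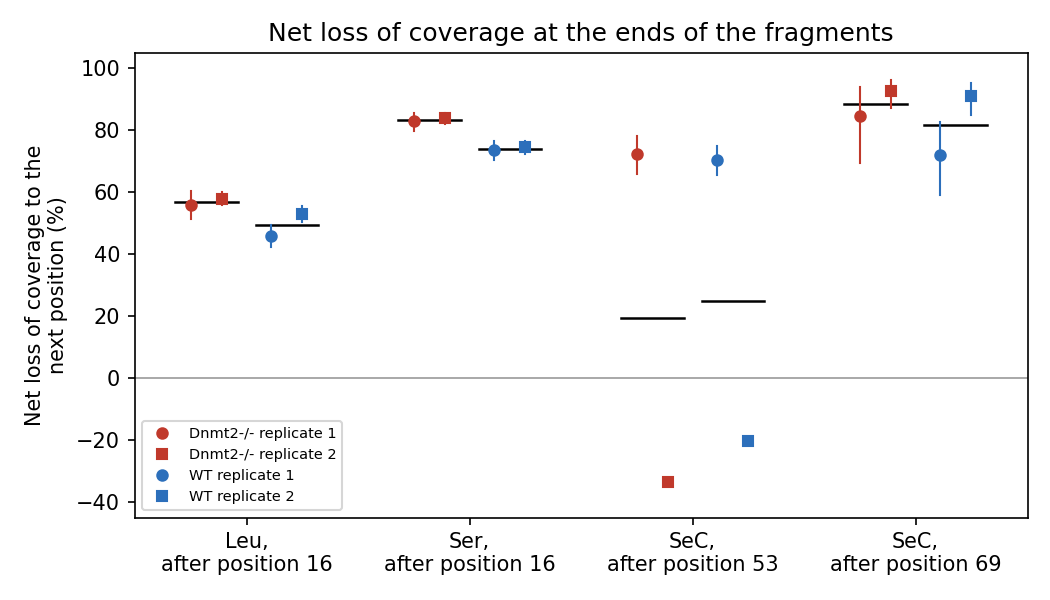
Net loss of coverage to the next position (%) at the ends of the fragments of Leu, Ser and SeC, with a point per library, its exact 95% binomial interval and a bar at the mean of each genotype. The interval takes the net loss as a count, covers counting error only and is not drawn where coverage rose. After position 16 both Dnmt2-/- libraries lie above both WT libraries in Leu, where intervals of the genotypes overlap, and in Ser. After position 53 of SeC the libraries divide by replicate number.

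Single positions were compared to see where the genotypes differed. With limma on log2(coverage + 1e-04), 0 of 1656 positions of all families with coverage passed (0.0%), 0 had an unadjusted p under 0.05, and 0 of the 249 positions of Leu, Ser and SeC passed. At position 15 of Leu coverage was 0.0322 ± 0.0364 units in Dnmt2-/- and 0.0127 ± 0.0106 in WT (SD, n = 2), with a log2 difference of 0.92 (SE 1.27). At position 12 of Ser it was 0.0411 ± 0.0404 units in Dnmt2-/- and 0.0190 ± 0.0161 in WT, with a difference of 0.96 (SE 1.14). At position 41 of SeC it was 0.00513 ± 0.00127 units in Dnmt2-/- and 0.00360 ± 6.5e-05 in WT, with a difference of 0.48 (SE 0.65), and limma's adjusted p was 0.999 for each of these positions. The difference was, without Dnmt2-/- replicate 2, −0.65 for Leu and −0.28 for Ser, and without WT replicate 1 it was −0.049 for Leu and −0.039 for Ser. It was 2.48 for Leu and 2.19 for Ser without Dnmt2-/- replicate 1. The median log2 difference was 0.30 over the positions of Leu, 0.46 over those of Ser and 0.33 over those of SeC, beside 0.44 over all 1656 positions.

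As deposited, both Dnmt2-/- libraries were above both WT libraries at 14 of 83 positions of Leu, at 15 of 81 positions of Ser and at 16 of 85 positions of SeC, and below at none of them. These shares of 16.9%, 18.5% and 18.8% stand beside 17.1% over the positions of all families. In each family they formed a single run, from position 69 to 82 in Leu, from 37 to 51 in Ser and from 38 to 53 in SeC, the last of which is the high block of SeC. As shares of the family's own coverage, which take out the family total, both Dnmt2-/- libraries were below both WT libraries at 42 of 83 positions of Leu, from position 21 to 62. This is 50.6% of its positions, against 15.9% over all families, and it includes all 9 positions of the anticodon loop and all 18 of the variable arm region. Dnmt2-/- replicate 2 lay furthest below WT in the variable arm region, at 14.3% of the Leu coverage. Replicate 1, at 23.1%, was nearer to the 25.4% and 26.4% of the WT libraries. In Ser the same held at 17 of 81 positions, 17 to 18 and 20 to 34, and in SeC at 2 of 85, positions 35 and 36. On this scale no position of the 3 families had both Dnmt2-/- libraries above both WT libraries, against 14.7% over all families. Neighbouring positions share reads and shares within a family sum to a constant, so these counts are descriptive.

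Set beside the other 20 families, the members had no common profile. The 2 families with the most similar shares over the 4 regions and 4 libraries (16 values) were Tyr and Ile for Leu, Val and Ala for Ser, and Leu and Met for SeC, and the nearest lay at a mean distance of 16.9, 9.98 and 26.3 percentage points. The distance is the part of the coverage that would have to move between regions to make the profiles equal. Averaged over the libraries, the 5′ part held 82.6% of the Ser coverage, 50.7% of the Leu coverage and 40.8% of the SeC coverage, beside a median of 47.1% in the other families. The variable arm region held 38.7% of the SeC coverage, the highest mean share of the 23 families, and 22.3% of the Leu coverage and 5.63% of the Ser coverage, beside a median of 9.92% in the others. The rank of SeC rests on the libraries numbered 1, since in number 2 Thr was above it, at 33.95% in Dnmt2-/- and 30.18% in WT, against 33.66% in Dnmt2-/- and 27.75% in WT for SeC. That region had 20 positions in SeC, 18 in Leu and 16 in Ser, and 5 to 15 in the other families. Its length follows the length of the table, since the 3′ part is counted from the end. The 15 positions were those of Ala, whose table has 80 positions and held 0 or 1 reads at the last of them. Whether the regions of Ala match its structure was not checked. Divided by its share of the length, the coverage of the region was 1.64 in SeC, 1.03 in Leu and 0.285 in Ser, at ranks 8, 11 and 16 of 23. Per position, a high coverage of this stretch was therefore not particular to the tRNAs with a long arm, and Thr had the highest ratio at 2.99. The stretch also holds the second strand of the anticodon stem, which is a larger part of it where it is short. The variable region alone was thus not compared.

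**Figure D5:**
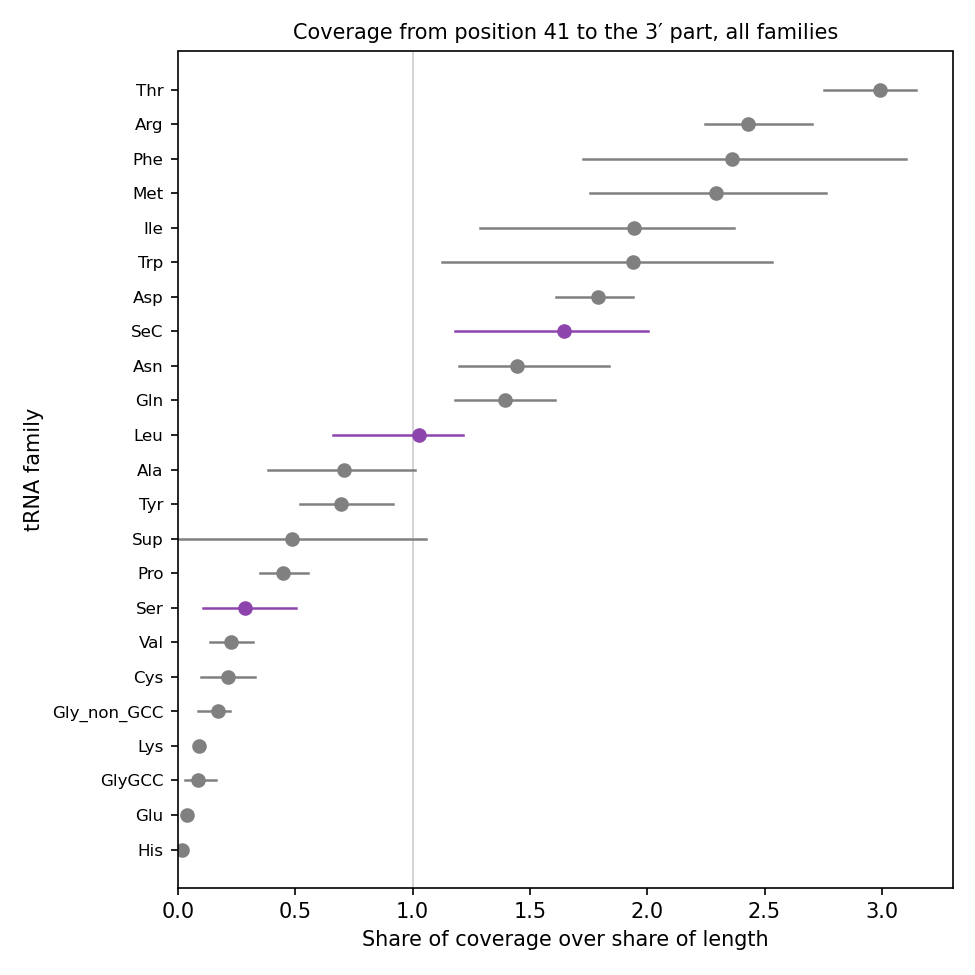
Share of coverage divided by share of length for the stretch from position 41 to the 3′ part in all 23 families, with a point at the mean and a line from the lowest to the highest of the 4 libraries. SeC, Leu and Ser, in purple, spread from 1.64 to 0.285 among the other families, in grey, which reach 2.99 in Thr.

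The last 20 positions held 19.5% and 5.84% of the Leu coverage in the Dnmt2-/- libraries and 16.2% and 9.83% in the WT libraries. For Ser this was 9.22% and 2.43% in the Dnmt2-/- libraries and 13.7% and 4.49% in the WT libraries, and for SeC 2.09% and 7.11% in the Dnmt2-/- libraries and 2.95% and 4.50% in the WT libraries. On the reverse strand, the highest position of Leu held 4 and 5 reads in the Dnmt2-/- libraries and 11 and 12 reads in the WT libraries. That of Ser held 1 read in each Dnmt2-/- library and 2 and 4 reads in the WT libraries, and SeC had 1 reverse read in WT replicate 1 and none in the other libraries. Reverse coverage was at most 0.515% of the forward sum in these families, so the fragments came almost wholly from the sense strand.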

How the data were processed

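The authors deposited signal, namely read coverage at each position, in 48 tables, 1 for each tRNA family and replicate number, with separate columns for genotypes and strands, per the file headers. CASAVA 1.8.3 and Bowtie are named in the submitters' processing notes. The sources used here state no alignment settings, genome build, tRNA reference or scaling. Per the labels' protocols, RNA ends were repaired with T4 polynucleotide kinase and libraries were selected by size, which limits the fragments that can be seen.

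Within a library, 100% of the values were whole multiples of its smallest one, to a tolerance of 0.01 of it. That smallest value was taken as 1 read, and no count model was used since neighbouring positions share reads. Summed over the highest positions of 23 families, Dnmt2-/- replicates 1 and 2 held 267920 and 220277 reads, and WT replicates 1 and 2 held 423186 and 337091. The whole glycine table was left out, as its total equals that of its GlyGCC and non-GCC parts.

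Totals, log2 odds of region shares (0.001 added to the share and to its complement) and positions were fitted over all families with limma's lmFit and eBayes (version 3.58.1, in R 4.3.3), with genotype as the sole term, two-sided tests and Benjamini-Hochberg adjustment at 0.05, and the fit was tested on simulated data. Fold changes on the log2(value + pseudocount) scale understate those of low values. The family Sup rests on 5 reads or fewer at its peak. Named are the 3 families, the positions of highest mean coverage, the first and last positions, those of the steepest net drop and rise, and the 2 most similar families per member. Members, windows and tests were chosen with earlier results of these data known. The alternatives tried were a block for the replicate number, fits without 1 library, rescaling, pseudocounts, windows, low-value filters and the highest position in place of the sum.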

Additional observations from a re-analysis of the deposited data

How the results depend on the processing

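Of 177 recomputed estimates for Leu, Ser and SeC, 149 kept their direction and their side of the threshold and 28 turned sign, 27 of them on leaving out a library. Leaving out each library in turn, the log2 difference of the total ranged from −0.65 to 1.67 for Leu, −0.29 to 1.91 for Ser and −0.27 to 1.06 for SeC. That of the highest position ranged from −0.65 to 2.48 for Leu, −0.28 to 2.19 for Ser and 0.23 to 0.73 for SeC. The log2 odds difference of the 5′ share ranged from −0.14 to 1.53 for Leu, −0.30 to 1.74 for Ser and −0.75 to 0.34 for SeC. That of the anticodon loop ranged from −0.55 to −0.21 for Leu, −0.81 to 0.30 for Ser and −0.44 to 0.14 for SeC, that of the variable arm region from −1.06 to −0.21, −1.40 to 0.46 and −0.43 to 0.78, and that of the 3′ share from −1.21 to 0.43, −1.85 to 0.20 and −0.64 to 1.14. With libraries rescaled to one median family, the total of SeC turned to −0.083. Over the fits without a library, 0 to 1 families passed for the 5′ share, 0 to 1 for the loop and 0 to 1 for the variable arm region, in each case Sup. These fits use fewer libraries or another scaling, and beyond that the cause was not tested.

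The labels give replicate numbers 1 and 2 in both genotypes but do not say what a number marks. Over the 23 families, the deviations of same-numbered libraries from their genotype's mean total correlated with r = 0.86, a hint from the data and not from the design. With the replicate number as a block, 2 families passed for the total (Gln and His), 1 for the variable arm region (Sup, adjusted p = 0.000172), and 0 positions. Leu, Ser and SeC did not pass there either, with an adjusted p of 0.335, 0.110 and 0.382 for the total. Limma's unadjusted p with this block was 0.160 for Leu, 0.0287 for Ser and 0.266 for SeC in the total, and 0.0452 for the anticodon loop share of Leu. It was under 0.05 for 6 families in the total and at 216 positions, against 0 of each without the block. Depth limits SeC most, with 215 reads at the highest position of Dnmt2-/- replicate 2.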
